A study of Mus musculus with 6 samples.

Results

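Accessible chromatin was described at the loci of Hk1, Hk2, Slc2a1, Slc2a3 and Txnip, the 5 genes that govern glucose entry and its first phosphorylation in T cells. A region of the deposited count matrix belonged to a locus if it overlapped the gene, or if its nearest protein-coding gene end was that gene's and lay within 50 kb. This took in 21 of 24605 regions: 2 at Hk1, 7 at Hk2, 4 at Slc2a1, 6 at Slc2a3 and 2 at Txnip. The rule used the deposited regions, which exist only where the authors listed peaks in at least 2 of the 6 libraries, so that these sites are open is not a finding. The 5 genes were picked with earlier results of these data known, above all the lower regions inside Hk2, so the fold changes below describe these libraries and are no independent evidence. The linked region farthest from its gene lay 22.1 kb from the end of Hk2, and 0 regions were nearest to one of these genes from beyond 50 kb.

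The palmitate group was wild-type mouse CD8+ T cells cultured for 48 hours with 100 µM palmitate, a saturated fatty acid, and the control group was the same kind of cells without it (3 libraries each). Per the labels the cells came from pancreas, spleen and lymph nodes, and 50000 cells sorted by FACS entered each ATAC-seq library, in which Tn5 transposase cuts open DNA. Replicates carry numbers in the labels, with nothing on separate mice or cultures and no sequencing batch, so the tests measure only the spread between these libraries. Counts in regions totalled 2614890 to 3089230 in palmitate libraries and 2219136 to 2855574 in control libraries.

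The CD8+ T cell label was checked against chromatin at marker genes. All 8 T cell markers (Cd8a, Cd8b1, Cd3d, Cd3e, Cd3g, Thy1, Lck and Cd5) had a gene-end region, with a summed level of 317 to 370 CPM (counts scaled to library size with TMM factors) in palmitate libraries and 339 to 363 CPM in control libraries. Of these 8, Thy1 was lower in palmitate (log2 fold change -0.55, edgeR adjusted p 0.0108). No gene-end region was in the matrix for Cd4, the B cell markers, the NK cell markers or the pancreas markers, and 1 of 5 myeloid markers had one. The myeloid region, at Itgam, was weak and was higher in palmitate (9.85 to 13 CPM) than in control libraries (5.32 to 7.14 CPM). The part of such cells in the results was not tested. In a bulk library, fewer cells with an open site and less opening per cell cannot be told apart.

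Glucose enters T cells through facilitative transporters, mainly GLUT1 (Slc2a1) and the high-affinity GLUT3 (Slc2a3), and hexokinases trap it as glucose 6-phosphate. Hexokinase 1 (Hk1) is expressed in most cells, whereas hexokinase 2 (Hk2) is induced when lymphocytes are activated. TXNIP, an alpha-arrestin, promotes the removal of GLUT1 from the cell surface, and its gene is switched on by the glucose-sensing factors MondoA (Mlxip) and Mlx.

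The start sites of 4 of the 5 genes were located with RefSeq promoter windows (GRCm38.p6, 250 bases before to 50 after the start), and the windows that overlap an accessible region are printed 5′ to 3′ on the gene's strand, because the strongest region of each of these loci sits on them. Slc2a3 had no entry. Capitals mark matches, on either strand, to ACGTG (the core bound by hypoxia-inducible factors), GGGCGG (the GC box bound by Sp factors), CCAAT (the box bound by NF-Y) and TATAAA (the TATA box).
Hk2 start window, chr6:82774405-82774704, strand -: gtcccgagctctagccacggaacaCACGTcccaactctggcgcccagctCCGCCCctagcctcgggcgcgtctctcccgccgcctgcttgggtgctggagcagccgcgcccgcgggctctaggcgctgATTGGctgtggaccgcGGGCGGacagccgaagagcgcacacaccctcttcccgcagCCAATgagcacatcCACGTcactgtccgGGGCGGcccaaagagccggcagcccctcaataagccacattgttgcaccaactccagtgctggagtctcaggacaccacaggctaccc
Txnip start window, chr3:96557707-96558006, strand +: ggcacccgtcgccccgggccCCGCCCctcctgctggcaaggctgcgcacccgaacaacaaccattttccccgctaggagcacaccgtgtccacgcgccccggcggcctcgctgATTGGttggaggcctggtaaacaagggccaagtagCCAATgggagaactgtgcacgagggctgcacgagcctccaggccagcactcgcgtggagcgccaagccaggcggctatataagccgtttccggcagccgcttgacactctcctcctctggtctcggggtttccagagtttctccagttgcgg
Slc2a1 start window, chr4:119108495-119108794, strand +: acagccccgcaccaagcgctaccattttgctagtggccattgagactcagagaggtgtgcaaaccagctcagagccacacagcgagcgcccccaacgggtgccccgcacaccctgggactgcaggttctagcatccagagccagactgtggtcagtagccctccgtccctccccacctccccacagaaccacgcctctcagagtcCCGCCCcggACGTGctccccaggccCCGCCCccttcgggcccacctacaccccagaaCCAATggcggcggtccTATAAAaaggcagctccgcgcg
Hk1 start window, chr10:62340372-62340671, strand -: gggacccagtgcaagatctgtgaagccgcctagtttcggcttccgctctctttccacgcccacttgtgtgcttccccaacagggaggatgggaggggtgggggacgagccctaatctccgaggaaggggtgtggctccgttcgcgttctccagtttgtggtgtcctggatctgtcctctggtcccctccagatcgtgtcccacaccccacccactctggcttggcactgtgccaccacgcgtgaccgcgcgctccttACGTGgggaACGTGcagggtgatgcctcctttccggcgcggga

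The windows were GC-rich, with a G and C content of 67.3% at Hk2, 65.3% at Txnip, 65.3% at Slc2a1 and 63.3% at Hk1, against a median of 56.3% over all 21263 protein-coding windows. The Hk2 window held 3 GC boxes, 2 CCAAT boxes and 2 hypoxia-factor cores. The Txnip window held 1 GC box and 2 CCAAT boxes, and the Hk1 window held 2 hypoxia-factor cores. The Slc2a1 window held 2 GC boxes, 1 hypoxia-factor core, 1 match to CCAAT and 1 match to TATAAA. The last 2 began 13 and 29 bases into the gene, and the Hk1 cores 8 and 17 bases into it, after the listed start. Only exact strings were searched, so a variant of a box is not counted. Over all windows, 46.2% held a GC box, 38.2% a CCAAT box, 20.9% a hypoxia-factor core and 12.6% a TATA box. The E-box CACGTG, which contains the hypoxia-factor core, was in 7.84% of all windows and in 0 of these 4. Variants of the E-box were not searched, so this 0 does not show that the Txnip window lacks a site for MondoA and Mlx. A match is a string of letters and does not show that a factor binds.

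Of the 21 regions, 11 had a Benjamini-Hochberg adjusted p below 0.05 by edgeR (quasi-likelihood, TMM-scaled), 4 of them higher and 7 lower in palmitate, where 24.6% of all 24316 tested regions passed (11.9% higher and 12.7% lower). The 4 higher regions were the starts of Txnip, Hk2 and Hk1 and a strong region 8.33 kb outside Slc2a3. Of the 7 lower regions, 5 were at Hk2, away from its start, and 2 were at Slc2a3. The count of 7 was 4 without palmitate 2, palmitate 3 or control 3. With total counts as scaling, 2 were higher and 7 lower. By position, gene-end regions were called higher in 25.0% and lower in 2.47% of cases over the whole matrix, regions inside genes in 4.3% and 19.6%, and intergenic regions in 2.66% and 18.4%. The median log2 fold change was -0.23 over the 21 regions and -0.05 over all tested regions. All 3 palmitate libraries lay above the controls in 4 regions and below them in 8, and in 38.9% of all tested regions the groups did not overlap.

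Direction went with the strength of a region, here as in the whole matrix. The 4 higher regions had control means of 66.8 to 214 CPM, and the 7 lower ones had 9.98 to 52.8 CPM. Trended offsets remove each library's own curve of counts on region strength. With them 2 of the 21 regions passed, both lower and both inside Hk2, where 6.06% of all tested regions passed (2.09% higher and 3.98% lower). Of these 2, the one 21.1 kb downstream of the start entered the matrix through control peaks alone, which favours a lower value in palmitate. Its call with these offsets held in 1 of 6 fits that left out a library. With these offsets 2.43% of gene-end regions were higher and 1.45% lower, 1.93% and 5.69% of regions inside genes, and 1.77% and 5.41% of intergenic regions. Also with these offsets, before adjustment, 1 of the 21 had p under 0.05 by edgeR on the higher side and 4 on the lower side. The share of all tested regions at that unadjusted threshold was not counted, so these 2 counts have no background beside them.

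**Figure D1:**
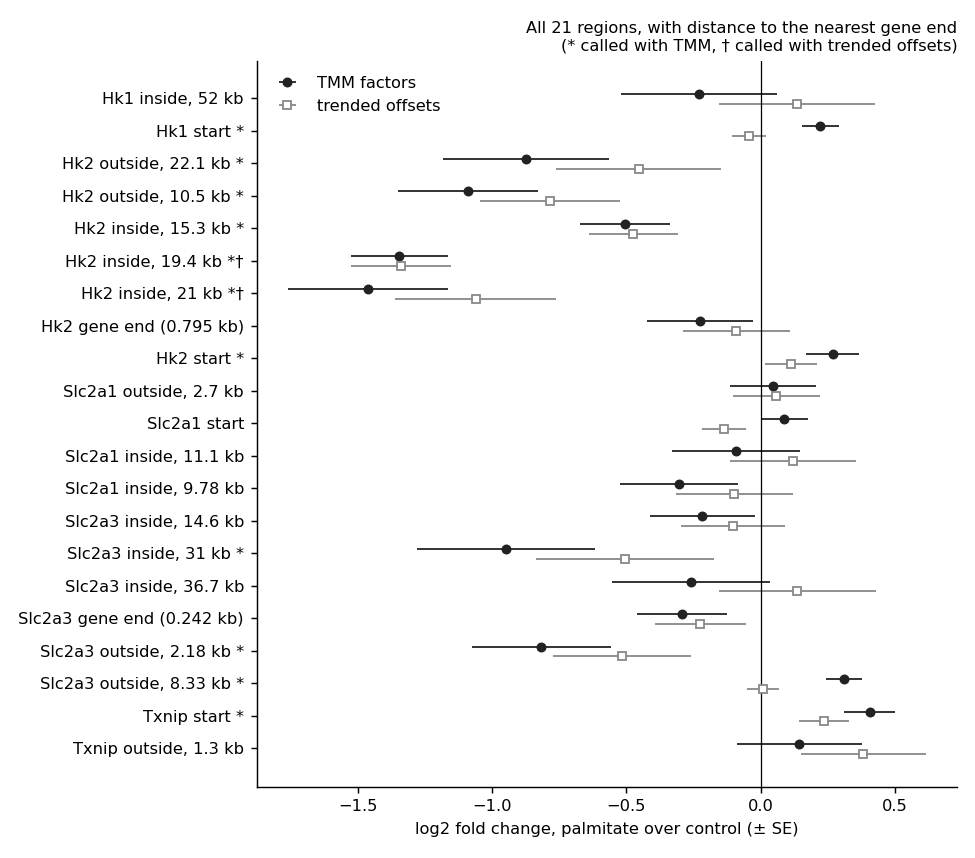
Each row is 1 of the 21 regions and each point its log2 fold change, palmitate over control, with its SE from edgeR, for TMM factors (filled circles) and trended offsets (open squares). The Hk2 regions reach -1.46 with TMM, the starts of Hk1, Hk2 and Txnip lie between 0.22 and 0.41, and these 3 starts move toward or past 0 with trended offsets.

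The Txnip start was more open in palmitate. The region (chr3:96557556-96558130, mm10 as the matrix gives it) had 83.2, 102 and 95.5 CPM in palmitate libraries 1 to 3, against 68.0, 70.9 and 73.1 CPM in controls 1 to 3. All 3 palmitate libraries lay above all 3 controls. The log2 fold change was 0.41 ± 0.094 (SE; edgeR adjusted p 0.00201), and it passed without any single library (adjusted p up to 0.0242). With trended offsets it was 0.24 and did not pass (edgeR adjusted p 0.123). The region also overlaps the noncoding gene Gm15441, so the openness cannot be assigned to Txnip alone. A weaker region 1.3 kb beyond the other end of Txnip had 13.1 ± 1.36 CPM in palmitate and 11.8 ± 1.02 CPM in control libraries (SD, n = 3 each), and did not pass (log2 fold change 0.14 ± 0.23 SE, edgeR adjusted p 0.694). Summed over both regions, the locus held 97.8 to 115 CPM in palmitate and 78.9 to 86.0 CPM in control libraries.

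Txnip belongs to the alpha-arrestins, which link membrane proteins such as transporters to ubiquitin ligases, and its relatives were on the list of other glucose genes. The gene ends of all 4 listed relatives, Arrdc1, Arrdc2, Arrdc3 and Arrdc4, were higher too, where 25.0% of gene-end regions were higher. Arrdc3 had 48.9, 52.0 and 45.6 CPM in palmitate libraries 1 to 3, against 35.3, 35.3 and 33.0 CPM in controls 1 to 3 (log2 fold change 0.50 ± 0.13 SE, edgeR adjusted p 0.0041). It was higher in 3 of 3 palmitate libraries and also passed with trended offsets (0.46, edgeR adjusted p 0.0278). Arrdc2 averaged 391 ± 1.96 CPM in palmitate and 289 ± 30.3 CPM in control libraries (SD, n = 3 each). Its log2 fold change was 0.44 with an SE of 0.065, and 0.10 under trended offsets. The log2 fold changes were 0.32 at Arrdc1 and 0.30 at Arrdc4, a paralog that MondoA also switches on, with 0.02 and 0.11 under trended offsets. Arrdc4 no longer passed when palmitate 1 (edgeR adjusted p 0.0654), palmitate 3 (0.0854), control 1 (0.0518) or control 2 (0.0506) was left out.

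**Figure D2:**
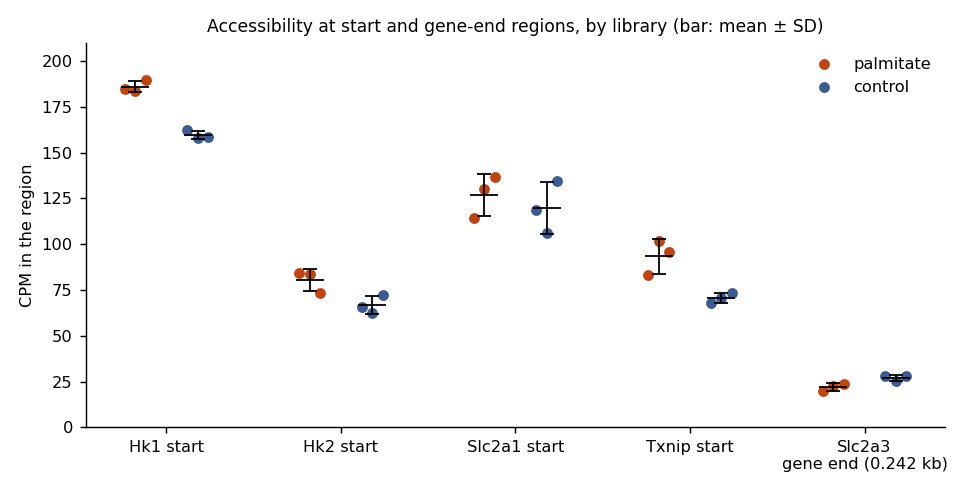
CPM (y axis) in the start regions of Hk1, Hk2, Slc2a1 and Txnip and the gene-end region of Slc2a3, 1 point per library with mean ± SD, palmitate left of control. At Txnip the palmitate points span 83.2 to 102 CPM and the control points 68.0 to 73.1 CPM, whereas at Slc2a1 the groups overlap.

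Hk1 kept its signal almost wholly at an internal start. RefSeq lists a start at the outer end of the gene, where the matrix held no region, and another further in, covered by a strong region centred 39.6 kb downstream of the outer start (chr10:62339980-62340705, also overlapping the noncoding gene Hk1os). This region was named after its values were seen, since no Hk1 region lay within 1 kb of a gene end. It had 185, 183 and 189 CPM in palmitate libraries 1 to 3, against 162, 158 and 158 CPM in controls 1 to 3. The groups did not overlap, and the log2 fold change was 0.22 ± 0.068 (SE; edgeR adjusted p 0.016). The call was lost without palmitate 3 (edgeR adjusted p 0.0674) and with total counts (0.238), and with trended offsets the value was -0.04 ± 0.063 (SE; edgeR adjusted p 0.739). The other Hk1 region, deeper in the gene, had 5.1 to 9.85 CPM in palmitate and 7.84 to 10.9 CPM in control libraries and did not pass (edgeR adjusted p 0.605). The start region took 94.9%, 97.3% and 95.6% of the counts of the locus in palmitate libraries and 95.4%, 94.8% and 93.6% in controls, and these overlap.

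Hk2 had the most regions of the 5 loci (7) and the most called ones, and its start and its distal elements moved in opposite directions. Such loci were not rare in the whole matrix. By the rule that links regions to genes, 375 of 12432 loci (3.02%) had a higher gene end and a lower region away from it. Among loci with exactly 7 regions these were 23 of 145, a count that asks for only 1 lower region. At least 5 lower regions were seen at 3 of these 145. With a higher gene end as well it was 1, Hk2 itself, which was picked with its lower regions known. The start region (chr6:82774349-82774743) had 84.4, 83.6 and 73.2 CPM in palmitate libraries 1 to 3, against 65.8, 62.2 and 72.4 CPM in controls 1 to 3. Palmitate 3 lay just above control 3, so the groups barely separate. The log2 fold change was 0.27 ± 0.098 (SE; edgeR adjusted p 0.0443). It no longer passed when palmitate 1 (edgeR adjusted p 0.133), palmitate 2 (0.143), control 1 (0.0946) or control 2 (0.136) was left out, nor with the DESeq2 Wald test (0.137), total counts (0.263) or trended offsets (0.537). A second region within 1 kb of this end, 0.969 kb downstream of the start, had 17.1 ± 1.49 CPM in palmitate and 20.2 ± 3.07 CPM in control libraries (SD, n = 3 each), with overlapping groups (edgeR adjusted p 0.429).

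An element 29.8 kb downstream of the Hk2 start, inside the gene (chr6:82744467-82744933), had the smallest p of all 21 regions and ranked 67 by p among 24316 tested. It had 16.6, 18.01 and 27.2 CPM in palmitate libraries 1 to 3, against 63.6, 37.3 and 57.5 CPM in controls 1 to 3. Every palmitate library lay below every control, although palmitate 3 was the highest of its group and control 2 the lowest of its own. The log2 fold change was -1.34 ± 0.18 (SE; edgeR adjusted p 5.38e-06), a palmitate level of 0.394 times control. It was -1.34 with trended offsets as well (edgeR adjusted p 3.39e-05) and passed in 13 of 13 alternatives. Per length, its level averaged 44.1 ± 12.4 CPM per kb in palmitate libraries, where the start had 204 ± 15.7, and 113 ± 29.5 CPM per kb in control libraries, where the start had 169 ± 13.1 (SD, n = 3 each). Among tested regions of like strength (the same 1 of 20 bins of mean CPM), 0.0822% had a lower log2 fold change.

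A weaker element 21.1 kb downstream (chr6:82753174-82753502) fell by a similar ratio. Its raw counts were 9, 14 and 14 in palmitate libraries and 32, 30 and 42 in controls, or 4.56 ± 0.927 CPM in palmitate and 12.7 ± 2.39 CPM in control libraries (SD, n = 3 each), without overlap. The log2 fold change was -1.46 ± 0.30 (SE; edgeR adjusted p 0.000559) with TMM and -1.06 (0.0303) with trended offsets, a call kept in 1 of 6 fits that left out a library. It entered the matrix through control peaks alone (listed in 0 of 3 palmitate and 3 of 3 control libraries), which favours a lower value in palmitate. The element 34 kb downstream (chr6:82740299-82740619) had 27.2, 27.9 and 18.4 CPM in palmitate libraries 1 to 3, against 40.1, 34.3 and 30.9 CPM in controls 1 to 3, without overlap. The change there, -0.50 ± 0.17 on the log2 scale (SE; edgeR adjusted p 0.0251), was lost without palmitate 3 (0.19) or control 1 (0.117). With trended offsets it was about as large, at -0.47, and did not pass (edgeR adjusted p 0.0856).

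The last pair of Hk2 regions lay beyond the far end of the gene, each in a noncoding gene, so Hk2 need not be their target. The one 10.5 kb past the end (chr6:82714154-82714544, in Gm32534) had 5.52, 7.81 and 6.9 CPM in palmitate libraries 1 to 3, against 16.1, 13.6 and 13.9 CPM in controls 1 to 3. Its log2 fold change was -1.09 ± 0.26 (SE; edgeR adjusted p 0.00248), and it passed without any single library but not with trended offsets (-0.78, edgeR adjusted p 0.0656). The one 22.1 kb past the end (chr6:82702793-82702963, in Gm32425) had 11, 19 and 15 raw counts in palmitate and 15, 39 and 31 in control libraries. Its CPM values separated the groups narrowly, at up to 6.46 in palmitate and from 6.54 in control libraries. The change there, -0.87 ± 0.31 on the log2 scale (SE; edgeR adjusted p 0.035), passed without control 1 (0.0134) and was lost without palmitate 1 (0.13), palmitate 2 (0.0522), palmitate 3 (0.0903), control 2 (0.146) or control 3 (0.102), and with trended offsets (0.415).

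**Figure D3:**
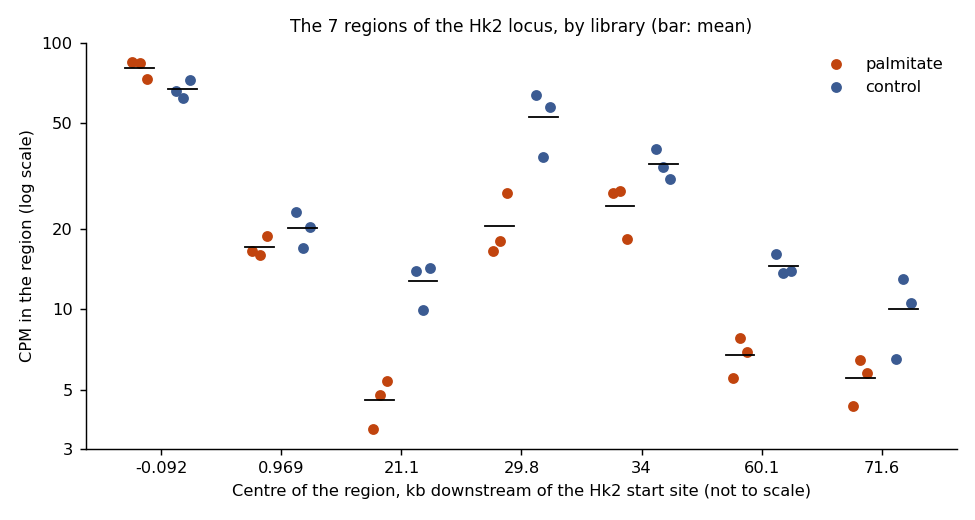
CPM on a log scale in the 7 regions of the Hk2 locus, ordered by distance from the start site, 1 point per library with a bar at the mean, palmitate left of control. At 29.8 kb the palmitate points span 16.6 to 27.2 CPM and the control points 37.3 to 63.6 CPM, while at the start the palmitate mean, 80.4 CPM, is above the control mean, 66.8 CPM.

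In each palmitate library the Hk2 start took a larger part of the locus counts than in any control. Over the whole matrix the median log2 fold change differed by strength bin. It was 0.16 in the bin of the start (around 66.2 CPM) and -0.34 in that of the element 21.1 kb downstream (around 9.05 CPM). For the stronger elements 29.8 kb and 34 kb downstream, the bins had medians of 0.02 (around 34.7 CPM) and -0.01 (around 29.1 CPM). The part of strength in the balance was not tested. The counts of the 5 lower regions together were 0.678, 0.776 and 0.869 times those of the start region in palmitate libraries 1 to 3, and 2.13, 1.74 and 1.76 times in controls 1 to 3. These 5 were picked for being lower, so the ratio is a description. The regions within 1 kb of the start, defined by position alone, took 63.8%, 60.5% and 59.1% of the locus counts in palmitate libraries and 38.8%, 42.3% and 42.2% in controls, a mean difference of 20.1 percentage points. The whole locus summed to 159 ± 4.53 CPM in palmitate and 212 ± 22 CPM in control libraries (SD, n = 3 each), without overlap. By the same linking rule, 26 of 394 protein-coding genes with at least 7 regions (6.6%) had at least 5 lower, and Hk2 was picked with its lower regions known.

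**Figure D4:**
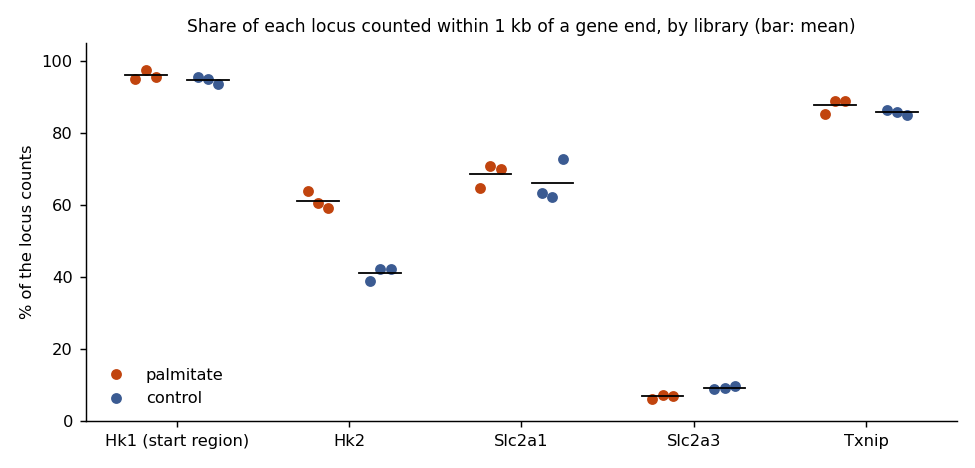
Percent of each locus's counts that fell within 1 kb of a gene end (for Hk1, in its start region), 1 point per library with a bar at the mean, palmitate left of control. At Hk2 the palmitate libraries lie at 59.1% to 63.8% and the controls at 38.8% to 42.3%, whereas Hk1, Slc2a1 and Txnip overlap. At Slc2a3 the groups separate the other way, at 6.2% to 7.17% in palmitate libraries and 8.95% to 9.65% in controls. Most Slc2a3 counts lie in the strong region 8.33 kb outside the gene, linked by distance alone. That region averages 264 of 326 CPM in palmitate and 214 of 295 CPM in control libraries. The Slc2a3 gene-end region itself did not pass (edgeR adjusted p 0.211).

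Slc2a1, the GLUT1 gene, had 0 of 4 regions called by edgeR, limma-voom or DESeq2, and by edgeR 0 had p under 0.05 before adjustment (smallest 0.177). Its start region (chr4:119108539-119109325, also in the noncoding gene Gm52706) had 114, 130 and 137 CPM in palmitate libraries 1 to 3, against 119, 106 and 134 CPM in controls 1 to 3. The groups overlap throughout. The log2 fold change was 0.09 ± 0.087 (SE; edgeR adjusted p 0.494) with TMM, and it turned to -0.14 ± 0.080 (SE; edgeR adjusted p 0.333) with trended offsets and -0.03 with total counts. The region 2.7 kb outside the gene averaged 32.1 ± 5.86 CPM in palmitate and 31.1 ± 4.23 CPM in control libraries, and the pair inside it, 11.1 kb and 9.78 kb from its far end, averaged 13.7 ± 1.19 and 12.6 ± 1.28 CPM in palmitate and 14.7 ± 4.51 and 15.6 ± 1.22 CPM in control libraries (SD, n = 3 each). At the last of these the 3 palmitate libraries lay below the 3 controls, at -0.30 ± 0.22 on the log2 scale (SE; edgeR adjusted p 0.332).

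At Slc2a3, the GLUT3 gene, 2 weak regions were lower, 1 strong outlying region was higher and 3 regions did not pass. That strong region (chr6:122810689-122811555, 8.33 kb outside the gene) was the most open of the 21 per length, at 305 ± 5.16 CPM per kb in palmitate and 247 ± 23.2 CPM per kb in control libraries (SD, n = 3 each). It had 263, 261 and 270 CPM in palmitate libraries 1 to 3, against 236, 196 and 210.5 CPM in controls 1 to 3, without overlap. The log2 fold change was 0.31 ± 0.067 (SE; edgeR adjusted p 0.00106), and 0.01 with trended offsets (edgeR adjusted p 0.963). Of regions of like strength 52.5% had a lower log2 fold change. It is linked to Slc2a3 by distance alone.

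Both lower Slc2a3 regions had few counts. The region 2.18 kb outside the gene (chr6:122804540-122804814) had 7.1, 6.8 and 8.82 CPM in palmitate libraries 1 to 3, against 12.6, 12.98 and 14.3 CPM in controls 1 to 3. The groups did not overlap, but like the region inside the gene described next it entered the matrix through control peaks alone, which favours a lower value in palmitate. The change there, -0.82 ± 0.26 on the log2 scale (SE; edgeR adjusted p 0.0188), was lost without palmitate 1 (0.0585), palmitate 2 (0.0796) or control 3 (0.0786) and with trended offsets (0.237). Inside the gene, 31 kb from its nearest end, a region (chr6:122758812-122759052) had 20, 7 and 15 raw counts in palmitate and 17, 35 and 32 in control libraries, which overlap. The change there, -0.95 ± 0.33 on the log2 scale (SE; edgeR adjusted p 0.0344), was -0.565 without palmitate 2 (0.252) and was also lost without palmitate 3 (0.0815), control 2 (0.0751) or control 3 (0.119), and with trended offsets (0.396).

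The 3 Slc2a3 regions that did not pass had log2 fold changes of -0.29 to -0.22 with TMM, and 1 of them, 36.7 kb from the nearest end, turned to 0.14 with trended offsets. Among them, the gene-end region (chr6:122801249-122802121) had 19.7, 22.8 and 23.8 CPM in palmitate libraries 1 to 3, against 27.9, 25.3 and 28.2 CPM in controls 1 to 3. All 3 palmitate libraries lay below the controls, but the difference of -0.29 ± 0.17 on the log2 scale (SE) did not pass (edgeR adjusted p 0.211). Per length this end, which was not matched to a start window, was less open than the regions on the starts of the other 4 genes, at 25.3 ± 2.43 CPM per kb in palmitate and 31.1 ± 1.84 CPM per kb in control libraries (SD, n = 3 each). A region inside Slc2a3 (chr6:122742440-122742857), 14.6 kb from the nearest end, was more open per length. It had 45.4 ± 10.2 CPM per kb in palmitate and 52.4 ± 6.36 CPM per kb in control libraries (SD, n = 3 each). Which Slc2a3 region holds a start in use was not determined. In palmitate the starts stood at 256 CPM per kb for Hk1, 204 for Hk2, 163 for Txnip and 161 for Slc2a1, and in control at 220 for Hk1, 169 for Hk2, 152 for Slc2a1 and 123 for Txnip. Txnip and Slc2a1 differed in palmitate by less than their SDs of 16.6 and 14.5. In control, Hk2 and Slc2a1 differed by less than the Slc2a1 SD of 17.9.

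**Figure D5:**
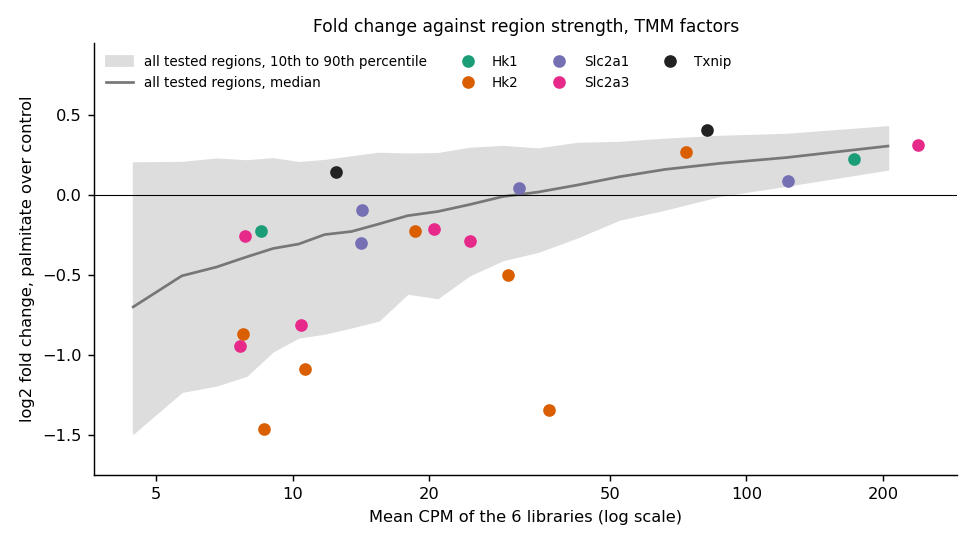
Log2 fold change with TMM (palmitate over control) against mean CPM on a log scale for the 21 regions, over the median (line) and the 10th to 90th percentile (grey) of all tested regions in 20 bins of strength. The Hk2 elements at -1.34 and -1.46 lie under the grey band, the Txnip start at 0.41 lies above it, and the Hk1 start lies within it. The element at -1.46 entered the matrix through control peaks alone, which favours a lower value in palmitate.

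The authors' peak lists held 15, 15 and 15 of the 21 regions in palmitate libraries 1 to 3 and 19, 20 and 21 in controls 1 to 3. The share of all 24605 regions listed in each library was not counted, so these counts have no background beside them. Of the 3 regions in 0 palmitate lists, 1 was at Hk2 and 2 were at Slc2a3. These 3 entered the matrix through control peaks alone, so that choice favours lower values in palmitate. The lists themselves were shorter in palmitate, at 20201 to 21502 peaks, than in control, at 22359 to 27122 peaks, and the part of this difference in the result was not tested. At the Hk2 element 29.8 kb downstream, the authors' peak score was 56, 170 and 220 in palmitate libraries and 408, 257 and 506 in controls. At the Txnip start it was 1093, 1377 and 1235 in palmitate libraries and 629, 895 and 993 in controls.

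Beyond the 5 genes, a list of 46 genes of glucose uptake, glycolysis, lactate export and glucose sensing was examined at gene ends. A region within 1 kb of an end was in the matrix for 29 of them. Of these 10 were higher, 0 were lower and 19 did not pass, or 34.5% higher against 25.0% of all gene-end regions, with a median log2 fold change of 0.17 against 0.14. Of all gene-end regions 2.47% were lower, so a count of 0 among 29 is near the background. Before adjustment 0 were lower at p under 0.05 by edgeR, and after adjustment 0 were lower by limma-voom or DESeq2. The higher ends included Pkm, pyruvate kinase, at 216 ± 14.5 CPM in palmitate and 177 ± 16.3 CPM in control libraries (SD, n = 3 each; log2 fold change 0.30, edgeR adjusted p 0.003), and Mlxip, at 141 ± 2.197 CPM in palmitate and 117 ± 13.8 CPM in control libraries (0.28, edgeR adjusted p 0.0134). The others were Pfkm, a phosphofructokinase whose region is shared with Senp1 (0.34), Slc16a1, the lactate transporter MCT1 (0.34), Pgam1, phosphoglycerate mutase (0.27), Gapdh (0.24) and the 4 alpha-arrestins. Several calls were marginal, and each of these was lost when any of more than 1 library was left out. Adjusted p values by edgeR, each with the left-out library in brackets, were 0.0538 (palmitate 3) and 0.0983 (control 2) for Mlxip. For Pfkm they were 0.0655 (palmitate 2), 0.0849 (palmitate 3) and 0.0805 (control 2). For Slc16a1 they were 0.0516 (palmitate 1), 0.0982 (palmitate 2), 0.0768 (control 1) and 0.0846 (control 2). For Pgam1 these were 0.156 (palmitate 2), 0.135 (palmitate 3), 0.0627 (control 2) and 0.0796 (control 3), and for Gapdh 0.182 (palmitate 2), 0.178 (palmitate 3), 0.0827 (control 1) and 0.142 (control 2). With trended offsets 1 was higher, Arrdc3, and 0 were lower.

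Myc, a driver of glycolytic genes in activated T cells, had 83.4 ± 3.49 CPM at its end in palmitate and 85.5 ± 11.7 CPM in control libraries (SD, n = 3 each; edgeR adjusted p 0.867). Mlx, the partner of MondoA, had a log2 fold change of 0.26 at an end shared with Coasy (edgeR adjusted p 0.179), and Txn1, the thioredoxin that TXNIP binds, had 0.10 (0.341). The count of 10 higher ends was 6 without palmitate 2, 5 without palmitate 3 and 4 without control 2. With ends taken as 2.5 kb, 2 genes were lower, Hk3 (log2 fold change -0.86), a hexokinase of blood cells, and Slc16a3 (-0.48), the lactate transporter MCT4. Slc16a3 was at the threshold (edgeR adjusted p 0.05), and with trended offsets neither passed, with Hk3 at -0.55 (0.21) and Slc16a3 at -0.41 (0.184).

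Among 7555 gene-end regions with a mean of at least 50 counts, those whose log2 CPM followed these loci most closely over the 6 libraries were Kpna3 and Kdm1a for the Txnip start (Pearson r 0.998 and 0.998), BC004004 and Tmed2 for the Hk2 start (0.996 and 0.995), Cuta and Grk6 for the Hk1 start (0.997 and 0.997), the shared end of Stat5a and Stat5b and that of Zfp605 for Slc2a1 (0.995 and 0.993), and the shared end of Coq4 and Trub2 and that of Ddx19a for Slc2a3 (0.979 and 0.979). The libraries share the treatment and the strength trend, and r was at least 0.9 at 1380 ends for Hk1, 1015 for Txnip and 407 for Hk2, against 44 for Slc2a1 and 36 for Slc2a3. The named ends are the highest of 7555 over only 6 libraries, and such a search gives high r between unrelated regions too. How many would reach 0.9 by chance was not counted, so the names are a description and show no link.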

How the data were processed

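ATAC-seq counts of 6 libraries were used, 3 palmitate and 3 control. The authors deposited a matrix of raw counts, not normalized, for every region and library. The authors also deposited a peak list per library with a score for each peak. Per the submitters' processing notes, the tools were MACS2 2.2.8, Picard 2.23.8, Bowtie2 2.5.1, edgeR 3.40.2 and Trim Galore 0.6.10, and the build was mm10. For the Tn5 shift, the read counter and the merging of peaks into regions, the method is not given in the sources used here. Regions had a median width of 444 bp. Matrix coordinates are printed as deposited.

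Members and gene lists were chosen with earlier results of these data known. Regions were linked to protein-coding genes of RefSeq GRCm38.p6, the assembly of mm10. Exons were not used, so regions inside a gene are not split into exonic and intronic. Named regions were all that passed and the strongest within 1 kb of an end of each gene, and of the list all genes that passed. Differential accessibility was tested over the whole matrix with the two-sided edgeR quasi-likelihood test (edgeR 4.0.16, R 4.3.3), TMM factors (0.953 to 1.05), the filterByExpr filter (24316 regions kept, 289 removed) and Benjamini-Hochberg adjustment. Each SE was derived from the fold change and its F statistic. Fits were tested on simulated data with no strength curve between the groups. That test cannot choose between TMM factors and trended offsets.

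Alternatives were DESeq2 size factors, total counts, trended offsets (loess, span 0.3), no filter, limma-voom (limma 3.58.1), the Wald test of DESeq2 1.42.0, a replicate block, each library left out, a link of 20 kb, ends of 2.5 kb, peaks above the median score and regions covered by a peak over at least 50% of their length. Trended offsets with each library left out, and promoter windows in place of gene ends, were chosen after seeing the data. Precision is limited by the counts, with a median of 46 to 62 per region.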

Additional observations from a re-analysis of the deposited data

How the results depend on the processing

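The count of 4 higher regions was 2 with total counts and 0 with trended offsets, and it was 3 to 4 with each library left out. With trended offsets and a library left out it was 0 in each fit. The count of 7 lower regions was 2 with trended offsets and 3 by the Wald test of DESeq2, 4 to 6 with each library left out and 1 to 3 when trended offsets were added to that. DESeq2 size factors, no count filter, limma-voom and a link of 20 kb kept both counts within 1.5 times. Over all tested regions, the higher calls were 1282 with total counts, 1888 by DESeq2 and 507 with trended offsets, against 2894, and the lower calls were 4331 with total counts, 1236 by DESeq2 and 967 with trended offsets, against 3078. With 1 library left out the number of lower calls was between 1871 and 3391, lowest when control 3 was missing and next lowest, at 1919, when palmitate 3 was missing. Across all tested regions the median log2 value was -0.05 with TMM factors, -0.16 with total counts, -0.01 with DESeq2 size factors and 0.01 with trended offsets. The cause was not tested.

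Of the 13 regions given in full, 3 turned direction. Of the other 8, none of which passed, 3 turned with trended offsets, at 0.13 in Hk1, 0.12 in Slc2a1 and 0.14 in Slc2a3. The Hk1 start was at -0.0447 with trended offsets, and with a library also left out at -0.0529, -0.0239 and -0.053 (palmitate 1 to 3) and -0.0424, -0.0263 and -0.0682 (controls 1 to 3). The Slc2a1 start was at -0.0276 with total counts and -0.137 with trended offsets, and with a library also left out at -0.0825, -0.145 and -0.185 (palmitate 1 to 3) and -0.148, -0.207 and -0.0514 (controls 1 to 3). The strong region outside Slc2a3 was at -0.00172 and -0.00103 without palmitate 1 and 3, and -0.0258 and -0.0241 without controls 2 and 3, under the same offsets. The Hk2 element 29.8 kb downstream passed in 13 of 13 alternatives and in 6 of 6 fits with trended offsets and a library left out.

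Of the 46 listed genes, the count of higher ends was 4 with total counts, 4 by DESeq2, 1 with trended offsets and 4 to 9 with each library left out. The count of lower ends was 2 with ends of 2.5 kb. The Slc2a3 gene-end share differed by -2.42 percentage points, and by -4.63 with ends of 2.5 kb. With peaks above the median score, the lists held 6, 8 and 9 of the 21 regions in palmitate libraries 1 to 3 and 8, 11 and 10 in controls 1 to 3.

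Same-numbered libraries did not deviate together (correlations of 0.000431, -0.105 and -0.0269 for numbers 1 to 3), so the numbers were not taken as pairs. With a replicate block 3 regions were higher and 7 lower, and 9 listed ends were higher, with the Hk2 start at an adjusted p of 0.062 by edgeR. Depth limits the weak sites most, since the lower Slc2a3 regions had 7 to 42 counts per library.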
